A study of Mus musculus with 24 samples.

Results

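The genes described here are 10 genes of glucose use and of the response to low oxygen, namely Slc2a1, Hk1, Hk2, Pfkfb3, Aldoa, Pgk1, Ldha, Pdk1, Pdk4 and Vegfa, out of 18430 protein-coding genes that the arrays name. They were chosen by name, and every probe whose gene name in the scanner output was one of them was taken, which gave 23 probes of 60 bases. The arrays measured transcripts of immortalized mouse embryonic fibroblasts deleted for Ku70, also called Xrcc6, which encodes a subunit of the Ku dimer that binds broken DNA ends. All groups, the controls included, were these Ku70-/- cells, so no wild-type cells entered any comparison. KBrO3-only cells received 20 mM of the oxidant potassium bromate for 1 hr and were sampled at 4 or 24 hr, counted from the start of that hour. Co-exposed cells were given 150 µM of the plasticizer monomer bisphenol A (BPA) for 1 hr before the same KBrO3 treatment and stayed in BPA until sampling at 4 or 24 hr. BPA-only cells were labeled as sampled at 4 or 24 hr in 150 µM BPA, although the methods give 1 hr more for each. Every group had 3 arrays of 3 biological replicates. KBrO3-only and co-exposed cells shared 1 set of 15 arrays with their own untreated controls, which were labeled as 4 hr, and BPA-only cells lay on a set of 9 arrays with separate untreated controls that had no time label. No control was labeled as sampled at 24 hr, so that at 24 hr the time in culture and the treatment cannot be told apart. Slides also followed the groups in the set of 15 arrays. Of the groups compared there, only KBrO3 alone at 4 hr shared a slide with controls. Only the 24 hr groups with and without BPA shared one with each other. In the other comparisons of that set, slide and group cannot be told apart.

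Glucose enters fibroblasts mainly through the carrier encoded by Slc2a1 (GLUT1) and is trapped by hexokinases, encoded by Hk1 and Hk2. Pfkfb3 makes fructose 2,6-bisphosphate, the activator of phosphofructokinase, while Aldoa, Pgk1 and Ldha encode enzymes of the later steps down to lactate. Pyruvate dehydrogenase kinases, encoded by Pdk1 and Pdk4, switch off the entry of pyruvate into mitochondrial oxidation. Vegfa encodes a secreted growth factor for blood vessels. Most of these genes are known targets of hypoxia-inducible factor (HIF), which is stabilized in low oxygen and binds a short core sequence, whereas Pdk4 is better known as a gene of fasting that responds to FOXO and PPAR factors.

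The HIF core was searched as ACGTG and as GCGTG on both strands of RefSeq promoter windows of build GRCm38.p6, which run from 250 bases before to 50 bases after an annotated start. All 10 genes had a window. In the window of the outermost start, 5 of the 10 held ACGTG, 4 held GCGTG and 7 held either. Of 32851 windows of the same length in the mouse genome, 19.6% held ACGTG, 32.4% held GCGTG and 43.8% held either. ACGTG overlaps the E-box CACGTG, which was present in 7.15% of all windows. The windows below belong to the genes whose signals changed the most. They are written 5′ to 3′ along the gene, with ACGTG or GCGTG on either strand in capitals, and a match is no evidence that a factor was bound there.
Slc2a1, chr4:119108495-119108794 (plus strand): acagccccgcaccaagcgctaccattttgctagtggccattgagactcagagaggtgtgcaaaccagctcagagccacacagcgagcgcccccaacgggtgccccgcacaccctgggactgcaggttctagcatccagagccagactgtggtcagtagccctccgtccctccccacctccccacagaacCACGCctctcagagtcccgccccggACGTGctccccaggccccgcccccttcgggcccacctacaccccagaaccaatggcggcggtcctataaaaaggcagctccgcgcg
Hk2, chr6:82774405-82774704 (minus strand): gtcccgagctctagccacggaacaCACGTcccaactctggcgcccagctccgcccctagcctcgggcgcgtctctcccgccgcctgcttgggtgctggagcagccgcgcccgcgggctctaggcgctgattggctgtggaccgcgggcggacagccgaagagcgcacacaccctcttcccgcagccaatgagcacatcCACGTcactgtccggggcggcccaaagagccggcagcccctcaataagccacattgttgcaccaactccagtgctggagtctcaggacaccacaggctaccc
Pfkfb3, chr2:11553880-11554179 (minus strand): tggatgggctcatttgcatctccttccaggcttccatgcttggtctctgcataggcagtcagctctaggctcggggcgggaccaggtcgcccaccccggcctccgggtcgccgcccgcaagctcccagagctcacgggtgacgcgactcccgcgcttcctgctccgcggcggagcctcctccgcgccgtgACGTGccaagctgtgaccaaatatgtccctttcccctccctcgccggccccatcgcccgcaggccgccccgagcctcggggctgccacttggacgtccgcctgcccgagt
Pdk1, chr2:71872974-71873273 (plus strand): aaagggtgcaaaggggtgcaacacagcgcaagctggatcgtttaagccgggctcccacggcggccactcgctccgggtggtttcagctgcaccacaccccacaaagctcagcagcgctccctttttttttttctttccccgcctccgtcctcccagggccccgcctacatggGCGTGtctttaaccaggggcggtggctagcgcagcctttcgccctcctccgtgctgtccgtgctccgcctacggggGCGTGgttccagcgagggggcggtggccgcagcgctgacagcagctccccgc
Pdk4, chr6:5496229-5496528 (minus strand): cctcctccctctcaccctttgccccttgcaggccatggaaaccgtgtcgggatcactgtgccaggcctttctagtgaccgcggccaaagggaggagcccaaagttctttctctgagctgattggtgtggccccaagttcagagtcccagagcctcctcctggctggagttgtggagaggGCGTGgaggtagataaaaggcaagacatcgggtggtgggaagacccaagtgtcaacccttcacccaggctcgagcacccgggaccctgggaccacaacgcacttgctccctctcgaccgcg
Vegfa, chr17:46032328-46032627 (minus strand): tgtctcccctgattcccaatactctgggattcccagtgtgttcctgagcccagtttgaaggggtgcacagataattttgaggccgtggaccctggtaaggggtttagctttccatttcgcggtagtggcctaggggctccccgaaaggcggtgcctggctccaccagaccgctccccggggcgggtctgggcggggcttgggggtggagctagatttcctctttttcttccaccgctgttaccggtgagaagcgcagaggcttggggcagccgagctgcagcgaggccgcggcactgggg
The Hk2 window held ACGTG at 226 and 52 bases before the start, and the Pfkfb3 window held it at 60 bases before. In Slc2a1 a match to ACGTG or GCGTG began 61 bases and another 36 bases before the start. The outermost Vegfa window held neither core, while another window of the gene, at chr17:46025114-46025413, held both.

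Signals are given as log2 values relative to the 75th percentile of the array, so that 1 unit is a 2-fold difference, and levels of different probes are not compared. A gene was said to rise or fall when limma's p, adjusted by Benjamini and Hochberg over every probe tested in the set, was below 0.05 and the difference exceeded 1.5-fold. Between 57.7% and 68.1% of spots were well above background in the KBrO3 set, and between 76.4% and 79.4% in the BPA set. The median residual SD over probes was 0.11 in the KBrO3 set and 0.32 in the BPA set, so that smaller differences could be called in the former. The Xrcc6 probe was well above background on all 24 arrays. Whether it lies within the deleted part of the gene is not given in the sources used here, so it does not check the genotype. All 12 fibroblast markers were well above background on every control array. At 24 hr, 10 of the 12 were lower than in controls after KBrO3 alone and 10 after co-exposure, with median log2 differences of −1.38 and −1.77, against 1 and 5 of 12 at 4 hr. Of all genes, 21% and 23.8% were lower at 24 hr and 22.8% and 26.5% at 4 hr. No fibroblast marker was lower after BPA alone at 4 hr, and 1 was at 24 hr. Of markers of other cell types, 4 of 5 tested muscle genes and 3 of 5 macrophage and leukocyte genes were higher than control after co-exposure at 4 hr, with medians of 1.38 and 0.83, against 1 and 2 of 5 after KBrO3 alone. In both groups 2 of 4 epithelial and 0 of 2 endothelial genes were higher, where 28.1% of all genes were higher after co-exposure and 21.1% after KBrO3 alone. From 4 to 24 hr of co-exposure all 5 muscle genes fell, with a median of −1.90, as did 4 of 5 macrophage and leukocyte, 3 of 4 epithelial and 2 of 2 endothelial genes, where 34.1% of all genes fell. Over the same time after KBrO3 alone 2, 3, 1 and 1 of these genes fell, where 28.6% of all genes did. The part of these shifts in the results was not tested, and in bulk RNA fewer cells and less RNA per cell cannot be told apart.

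**Figure D1:**
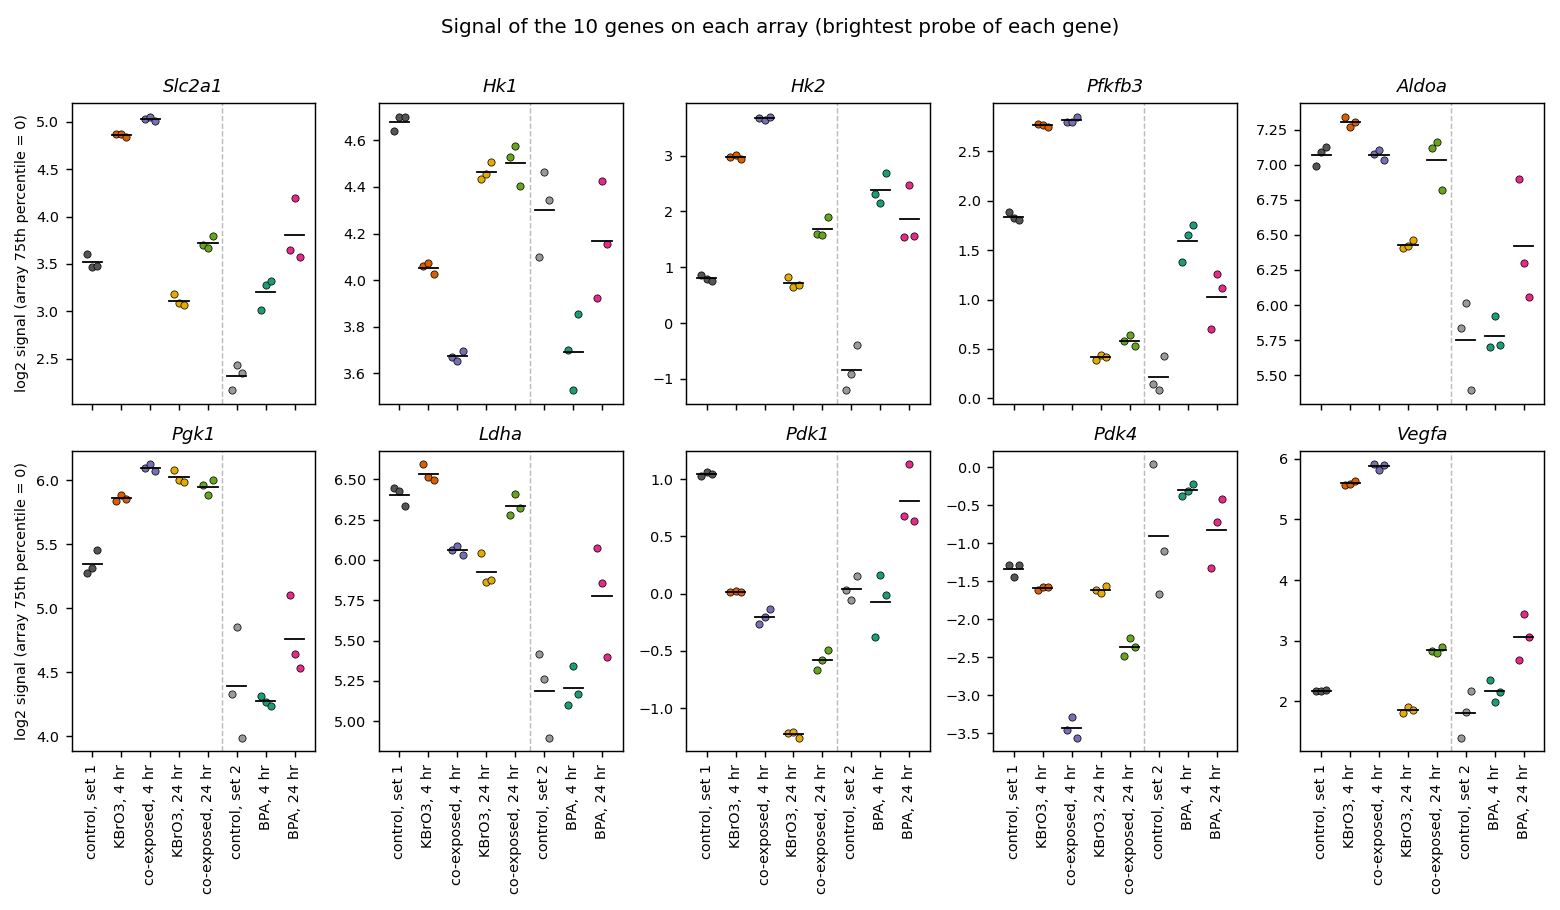
Log2 signal of the brightest probe of each gene (vertical axis, with the array's 75th percentile at 0) on each of the 24 arrays, by group (horizontal axis), with points for arrays, lines for group means and a dashed line between the array sets. Vegfa stands between 5.57 and 5.91 on the 6 KBrO3-treated arrays at 4 hr, above 2.19, the highest control array of that set.

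Of the genes of glucose uptake and commitment, Slc2a1, Hk2 and Pfkfb3 rose at 4 hr with and without BPA and were near or below control levels 24 hr after KBrO3 alone. The Slc2a1 probe, at chr4:118513698-118513757 in the array's own build, mm7, gave 3.61, 3.47 and 3.48 on the control arrays and 4.87, 4.87 and 4.84 at 4 hr after KBrO3. Co-exposed cells gave 5.03, 5.05 and 5.01 at 4 hr. All treated arrays lay above all controls, and the rise was 2.53-fold after KBrO3 (log2 difference 1.34 ± 0.05 SE, adjusted p = 1.31e-10) and 2.85-fold after co-exposure (1.51 ± 0.05, adjusted p = 3.63e-11). At 24 hr the KBrO3-only arrays read 3.18, 3.09 and 3.06, all below control, with a difference of −0.41 ± 0.05 that missed the fold limit. The co-exposed arrays read 3.70, 3.67 and 3.79 at 24 hr, all above control by 0.20 ± 0.05, again within the fold limit. Set against KBrO3 alone at the same time, Slc2a1 was 1.53-fold higher with BPA (0.61 ± 0.05, adjusted p = 1.03e-06). That difference stood close to the limit and did not pass it on quantile-normalized values (0.58) or without co-exposed replicate 3 (0.58), nor under normexp (0.57, adjusted p = 0.0528).

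Hk2, the hexokinase isoform that rises with growth signals and low oxygen, responded to every treatment at 4 hr. Its only probe lies at chr6:82750613-82750672 (mm7). It read 0.85, 0.79 and 0.76 on control arrays, 2.97, 3.01 and 2.95 at 4 hr after KBrO3, and 3.68, 3.64 and 3.69 at 4 hr after co-exposure. None of these groups overlapped, and Hk2 rose 4.52-fold after KBrO3 (2.18 ± 0.08, adjusted p = 9.56e-11) and 7.32-fold after co-exposure (2.87 ± 0.08, adjusted p = 7.11e-12). Adding BPA to KBrO3 thus gave a difference of 0.70 ± 0.08 (adjusted p = 1.53e-05). It was 0.55 with scaling to the array median, within the fold limit, and did not pass a Bonferroni-adjusted p of 0.01. By 24 hr the KBrO3-only arrays, at 0.83, 0.64 and 0.69, overlapped the controls. The co-exposed arrays, at 1.60, 1.58 and 1.89, were still all above both other groups, by 0.89 ± 0.08 against control (adjusted p = 5.39e-07) and by 0.97 ± 0.08 against KBrO3 alone (adjusted p = 9.28e-07).
In the BPA set the controls read −1.20, −0.92 and −0.39, and BPA alone gave 2.30, 2.15 and 2.68 at 4 hr and 1.54, 2.48 and 1.56 at 24 hr. Each BPA array was above each control, and at 4 hr Hk2 rose 9.27-fold (3.21 ± 0.32, adjusted p = 0.00126), while at 24 hr the rise was 6.47-fold (2.69 ± 0.32, adjusted p = 0.00459). With slide as a block, which left few degrees of freedom in this set, the values were 3.69 (adjusted p = 0.156) and 2.66 (adjusted p = 0.0678), and under normexp the 24 hr value was 2.43 (adjusted p = 0.155). Within slides that held both groups, the difference was 3.69 at 4 hr and 2.45 and 2.87 at 24 hr.

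Hk1, the constitutive hexokinase, moved the other way at 4 hr on its brightest probe, at chr10:61787906-61787965 (mm7). That probe read 4.64, 4.70 and 4.70 in controls, 4.06, 4.07 and 4.02 at 4 hr after KBrO3, and 3.67, 3.66 and 3.70 after co-exposure. The groups were apart, with differences of −0.63 ± 0.05 (adjusted p = 7.03e-08) and −1.01 ± 0.05 (adjusted p = 6.92e-10). Under normexp the former was −0.34 (adjusted p = 0.0819), and with the mean of a gene's probes they were −0.38 and −0.44, both within the fold limit. At 24 hr it read 4.44, 4.45 and 4.51 after KBrO3 and 4.53, 4.57 and 4.40 after co-exposure, and neither difference from control passed 1.5-fold. The other Hk1 probes did not all follow it. Of the 5 probes tested in the KBrO3 set, the brightest passed the thresholds after KBrO3 at 4 hr, and 3 others, between −0.32 and −0.15, did not. The fifth, at chr10:61834191-61834250 (mm7), was well above background on only 1 array there, so no size is given for its differences from that group. After co-exposure at 4 hr, 3 of the 5 were lower, 1 did not pass, and the fifth was higher by 0.63. At 24 hr after KBrO3, the probe at chr10:61794421-61794480 (mm7) was 0.60 higher, against −0.21 for the brightest. The lower Hk1 values at 4 hr thus hold for the brightest probe and not for every probe. In BPA-only cells Hk1 read 3.70, 3.53 and 3.85 at 4 hr, all below controls at 4.10, 4.47 and 4.34, a difference of −0.61 ± 0.21 (adjusted p = 0.147), and −0.14 ± 0.21 at 24 hr, and 0 of the 6 probes passed the thresholds.

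Pfkfb3 rose at 4 hr and fell at 24 hr, with and without BPA. Its brightest probe, at chr2:11411110-11411169 (mm7), read 1.89, 1.83 and 1.81 in controls, 2.78, 2.77 and 2.75 at 4 hr after KBrO3, and 2.79, 2.79 and 2.85 after co-exposure. At 24 hr the same probe read 0.39, 0.44 and 0.42 after KBrO3 and 0.58, 0.64 and 0.53 after co-exposure. The treated groups were apart from control each time, with rises of 0.92 ± 0.04 (adjusted p = 4.3e-10) and 0.97 ± 0.04 (adjusted p = 2.23e-10) at 4 hr. At 24 hr, Pfkfb3 fell by 1.42 ± 0.04 on the log2 scale after KBrO3 (adjusted p = 2.54e-11) and by 1.25 ± 0.04 after co-exposure (adjusted p = 4.44e-11). All 3 Pfkfb3 probes passed the thresholds in the same direction in these 4 comparisons. At 24 hr the dimmer probes were well above background on at most 1 array of each KBrO3-treated group, so there they add little. BPA added to KBrO3 made no difference past the fold limit, at 0.05 ± 0.04 at 4 hr and 0.17 ± 0.04 at 24 hr. BPA alone gave 1.38, 1.65 and 1.75 at 4 hr against controls at 0.15, 0.08 and 0.43, a rise of 1.37 ± 0.22 (adjusted p = 0.00986) that the other 2 probes, at 0.56 and 0.94, did not pass. With slide as a block the value was 1.42 (adjusted p = 0.271), and it was 1.42 within the 1 slide that held both groups. Without BPA replicate 3 it was 1.30 (adjusted p = 0.0654), and under normexp 1.21 (adjusted p = 0.335). At 24 hr BPA alone gave 0.70, 1.26 and 1.11, all above control, and the difference of 0.81 ± 0.22 did not pass (adjusted p = 0.0833).
Slc2a1 in BPA-only cells read 3.01, 3.28 and 3.32 at 4 hr and 3.65, 4.20 and 3.57 at 24 hr, all above controls at 2.17, 2.43 and 2.35. The difference at 4 hr, 0.89 ± 0.22, did not pass (adjusted p = 0.0563). It passed in the error-weighted fit (adjusted p = 0.0451), with the mean of a gene's probes (adjusted p = 0.0341) and with only probes above background on every array (adjusted p = 0.0473). The rise at 24 hr was 1.49 ± 0.22 (adjusted p = 0.00966), and did not pass under normexp (1.56, adjusted p = 0.235) or with only the 6 arrays compared (adjusted p = 0.0583). With slide as a block the 24 hr value was 1.54 (adjusted p = 0.0995), and within the slides that held both groups it was 1.22 and 1.85.

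The enzymes of the later steps changed little by comparison with Hk2. Aldoa, encoding aldolase A, read 6.99, 7.09 and 7.12 in controls, 7.34, 7.27 and 7.30 at 4 hr after KBrO3 and 6.41, 6.42 and 6.47 at 24 hr. It was above control by 0.24 ± 0.07 at 4 hr, within the fold limit, and fell by 0.64 ± 0.07 at 24 hr (adjusted p = 1.02e-05), as did its other probe, at −0.69. With scaling to the array median the 24 hr difference was −0.49 and on quantile-normalized values −0.32, both within the fold limit, and after normexp background correction it was −0.25 (adjusted p = 0.214). Co-exposed arrays read 7.08, 7.11 and 7.04 at 4 hr and 7.12, 7.16 and 6.82 at 24 hr, overlapping the controls. Against KBrO3 alone at 24 hr, co-exposed cells held 0.60 ± 0.07 more Aldoa signal (adjusted p = 3.88e-05), which was 0.56 without co-exposed replicate 1 and 0.54 without replicate 2, both within the fold limit. It was 0.52 on quantile-normalized values, also within the limit, and 0.59 under normexp (adjusted p = 0.0531), and it did not pass at the Bonferroni threshold.

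Pgk1, encoding phosphoglycerate kinase, rose at 24 hr with and without BPA, and at 4 hr after co-exposure. It read 5.27, 5.32 and 5.45 in controls, 5.84, 5.89 and 5.86 at 4 hr after KBrO3, and 6.08, 6.01 and 5.99 at 24 hr. Co-exposed arrays read 6.09, 6.13 and 6.07 at 4 hr and 5.97, 5.89 and 6.00 at 24 hr. All 12 treated arrays lay above the controls, with differences after KBrO3 of 0.51 ± 0.05 at 4 hr, within the fold limit (0.81 under normexp, adjusted p = 0.00192, past it), and 0.68 ± 0.05 at 24 hr (adjusted p = 1.85e-07). After co-exposure the 4 hr difference was 0.75 ± 0.05 (adjusted p = 3.2e-08), and the later one was 0.60 ± 0.05 (adjusted p = 4.06e-07). On quantile-normalized values the 4 hr difference was 0.46, within the fold limit. The last value stood at the limit. It was 0.58 without co-exposed replicate 3 and 0.57 without control replicate 1, neither past the limit. The second Pgk1 probe, which overlaps the first, gave 0.58 there and did not pass.

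Ldha, encoding the muscle-type lactate dehydrogenase subunit, did not pass the thresholds in the comparisons with controls, with 1 exception on quantile-normalized values. Its brightest probe read 6.44, 6.43 and 6.33 in controls, 6.59, 6.51 and 6.49 at 4 hr after KBrO3, and 6.04, 5.86 and 5.87 at 24 hr. Co-exposed arrays read 6.06, 6.08 and 6.03 at 4 hr and 6.28, 6.41 and 6.32 at 24 hr. The difference after KBrO3 was 0.13 ± 0.06 at 4 hr and −0.48 ± 0.06 at 24 hr. After co-exposure at 4 hr it was −0.34 ± 0.06, within the fold limit, and −0.62 on quantile-normalized values (adjusted p = 1.11e-05), past it, while the second probe was at −0.02. Against KBrO3 alone at 4 hr the brightest probe was at −0.47 ± 0.06, and at −0.62 with scaling to the array median, past the limit. The second Ldha probe had the opposite sign at 24 hr, at 0.21 after KBrO3 and 0.45 after co-exposure, so the 2 probes give no shared direction there.
Under BPA alone, none of these 3 genes passed the thresholds. Aldoa differed from control by 0.67 ± 0.26 at 24 hr (adjusted p = 0.217), with BPA arrays at 6.90, 6.30 and 6.06 all above controls at 5.84, 6.01 and 5.39. The corresponding differences at 24 hr were 0.37 ± 0.26 for Pgk1 and 0.58 ± 0.23 for Ldha, with overlapping arrays.

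Of the pyruvate dehydrogenase kinase genes Pdk1 and Pdk4, both fell after co-exposure, and Pdk1 also fell after KBrO3 alone. Pdk1 read 1.03, 1.07 and 1.05 in controls, 0.01, 0.03 and 0.01 at 4 hr after KBrO3, and −1.21, −1.21 and −1.26 at 24 hr. Co-exposed arrays read −0.27, −0.21 and −0.13 at 4 hr and −0.66, −0.58 and −0.49 at 24 hr. No treated group overlapped the controls. On its brightest probe, at chr2:71747473-71747532 (mm7), Pdk1 fell by 1.03 ± 0.05 after KBrO3 at 4 hr (adjusted p = 1.12e-09) and by 2.27 ± 0.05 at 24 hr (adjusted p = 3.72e-12), a 4.84-fold change. After co-exposure it fell by 1.25 ± 0.05 at 4 hr (adjusted p = 1.58e-10) and by 1.62 ± 0.05 at 24 hr (adjusted p = 2.97e-11). At 24 hr Pdk1 was higher with BPA than after KBrO3 alone by 0.65 ± 0.05 (adjusted p = 5.01e-07). The second probe, at chr2:71745341-71745400 (mm7), fell in the same 4 comparisons, by 1.22 at 24 hr after KBrO3 and by 0.91 after co-exposure, but its difference between the latter, 0.31, did not pass. Pdk1 under BPA alone read 0.68, 1.13 and 0.63 at 24 hr, all above controls at 0.03, −0.05 and 0.15, a difference of 0.77 ± 0.22 that did not pass (adjusted p = 0.0995). At 4 hr the difference was −0.12 ± 0.22.

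Pdk4 fell where BPA was added to KBrO3. It read −1.29, −1.45 and −1.28 in controls, −1.62, −1.58 and −1.57 at 4 hr after KBrO3, and −1.62, −1.66 and −1.57 at 24 hr, differences of −0.25 ± 0.08 and −0.27 ± 0.08 that missed the fold limit. Under normexp the 24 hr difference after KBrO3 alone was −0.62 (adjusted p = 0.0046), past the limit. With BPA the arrays read −3.46, −3.28 and −3.56 at 4 hr and −2.48, −2.25 and −2.36 at 24 hr, below every control and every KBrO3-only array. Against KBrO3 alone, Pdk4 fell by 1.84 ± 0.08 at 4 hr (adjusted p = 1.2e-08), a 3.59-fold change, and by 0.75 ± 0.08 at 24 hr (adjusted p = 7.71e-06). At 4 hr these groups shared no slide, so slide and BPA cannot be told apart. At 24 hr the difference was −0.76 within the slide that held both. The 24 hr value was −0.58 with scaling to the array median, within the fold limit, and did not pass at the Bonferroni threshold. Against control it fell by 2.09 ± 0.08 at 4 hr (adjusted p = 1.02e-10) and by 1.02 ± 0.08 at 24 hr (adjusted p = 1.37e-07). BPA-only arrays read −0.37, −0.31 and −0.22 at 4 hr and −1.32, −0.72 and −0.42 at 24 hr. Their controls spread from −1.66 to 0.04, and the differences of 0.61 ± 0.40 (adjusted p = 0.463) and 0.09 ± 0.40 (adjusted p = 0.936) overlapped them. Within the slide that held both groups at 4 hr, the difference was −0.33, the opposite sign.

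Vegfa had the widest range of group means of the 10 genes in the KBrO3 set. Its brightest probe, at chr17:44146842-44146901 (mm7), read 2.17, 2.17 and 2.19 in controls, 5.57, 5.59 and 5.63 at 4 hr after KBrO3 and 1.81, 1.90 and 1.85 at 24 hr. Co-exposed arrays read 5.91, 5.82 and 5.90 at 4 hr and 2.83, 2.80 and 2.89 at 24 hr. Every 4 hr array was above every control, with a rise of 10.7-fold after KBrO3 (3.42 ± 0.04, adjusted p = 1.95e-14) and 13-fold after co-exposure (3.70 ± 0.04, adjusted p = 1.24e-14). The other 2 probes gave 4.27 and 4.41 after KBrO3 and 4.60 and 4.52 after co-exposure, so the brightest probe gave the smallest change. At 24 hr after KBrO3 the brightest probe was at −0.32 ± 0.04 and the others at 0.36 and 0.19, with no shared direction and none past 1.5-fold. At 24 hr after co-exposure all 3 passed, at 0.66, 1.46 and 1.20, and all 3 were higher than after KBrO3 alone, by 0.99, 1.10 and 1.01.
BPA alone gave 2.36, 1.98 and 2.15 at 4 hr, overlapping controls at 1.40, 1.83 and 2.17, and 2.67, 3.45 and 3.05 at 24 hr, all above them. The difference at 4 hr, 0.37 ± 0.27, did not pass (adjusted p = 0.512), while at 24 hr it was 1.26 ± 0.27 (adjusted p = 0.0391). It was 1.20 on quantile-normalized values (adjusted p = 0.0621) and 1.38 under normexp (adjusted p = 0.339), and it did not pass with no filter on dim probes (adjusted p = 0.0642) or with only the 6 arrays compared (adjusted p = 0.134). Left without BPA replicate 2, BPA replicate 3, control replicate 1 or control replicate 2, the 24 hr value was 1.06, 1.26, 1.06 and 1.27 (adjusted p = 0.121, 0.0825, 0.114 and 0.0836), and it was 1.26 with the replicate number as a block (adjusted p = 0.0788). It was 1.06 with slide as a block (adjusted p = 0.119), and 0.85 and 1.28 within the slides that held both groups.

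**Figure D2:**
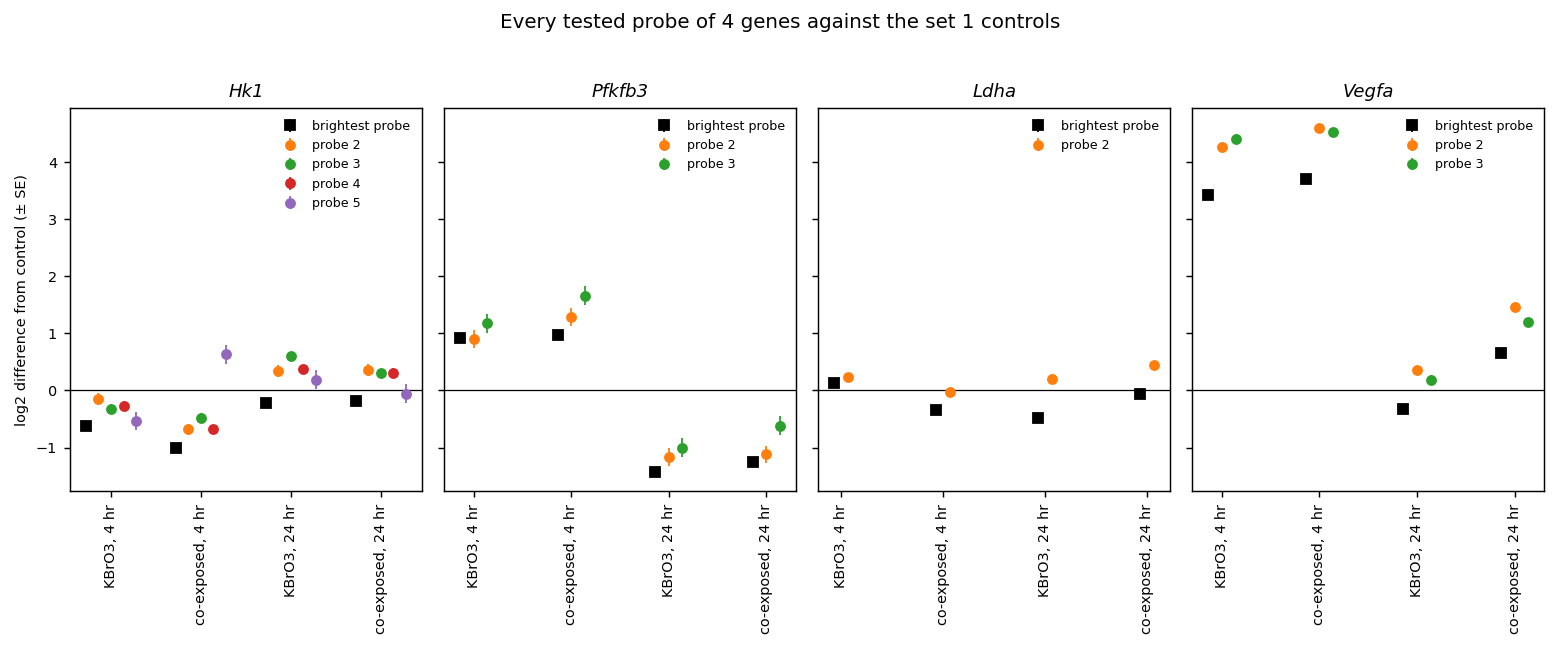
Log2 difference from control (vertical axis, with SE) for every tested probe of Hk1, Pfkfb3, Ldha and Vegfa after KBrO3 alone or co-exposure (horizontal axis), with black squares for the brightest probe. The 3 Pfkfb3 probes keep 1 direction in each comparison, although the dimmer ones were near background at 24 hr. The brightest Vegfa probe is at −0.32 at 24 hr after KBrO3 and the others are at 0.36 and 0.19.

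Counted over the 10 genes, KBrO3 alone gave 4 higher and 2 lower at 4 hr. Of all 14100 protein-coding genes tested in the set, 21.1% were higher and 22.8% lower, so a count of this size was not far from the background, and the higher members were Vegfa, Hk2, Slc2a1 and Pfkfb3. At 24 hr KBrO3 alone gave 1 higher and 3 lower, against a background of 12.7% higher and 21% lower. Co-exposure gave 5 higher and 3 lower at 4 hr (background 28.1% and 26.5%) and 3 higher and 3 lower at 24 hr (background 15.7% and 23.8%). Co-exposure against KBrO3 alone gave 1 higher and 1 lower at 4 hr, where 10.6% and 9.06% of genes were called. At 24 hr it gave 5 higher, namely Slc2a1, Hk2, Aldoa, Pdk1 and Vegfa, and 1 lower, Pdk4, where 6.55% and 7.59% of genes were called. BPA alone gave 2 higher and 0 lower at 4 hr (background 3.01% and 1.67%) and 3 higher and 0 lower at 24 hr (background 1.83% and 2.48%). With slide as a block 0 of all genes were called after BPA alone at either time, and without BPA replicate 3 the 474 higher and 263 lower genes at 4 hr became 162 and 32. The median log2 difference over the 10 genes was 0.51 for co-exposure against KBrO3 alone at 24 hr and 0.72 for BPA alone at 24 hr, whereas the medians over all genes were 0.01 and 0.02.

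**Figure D3:**
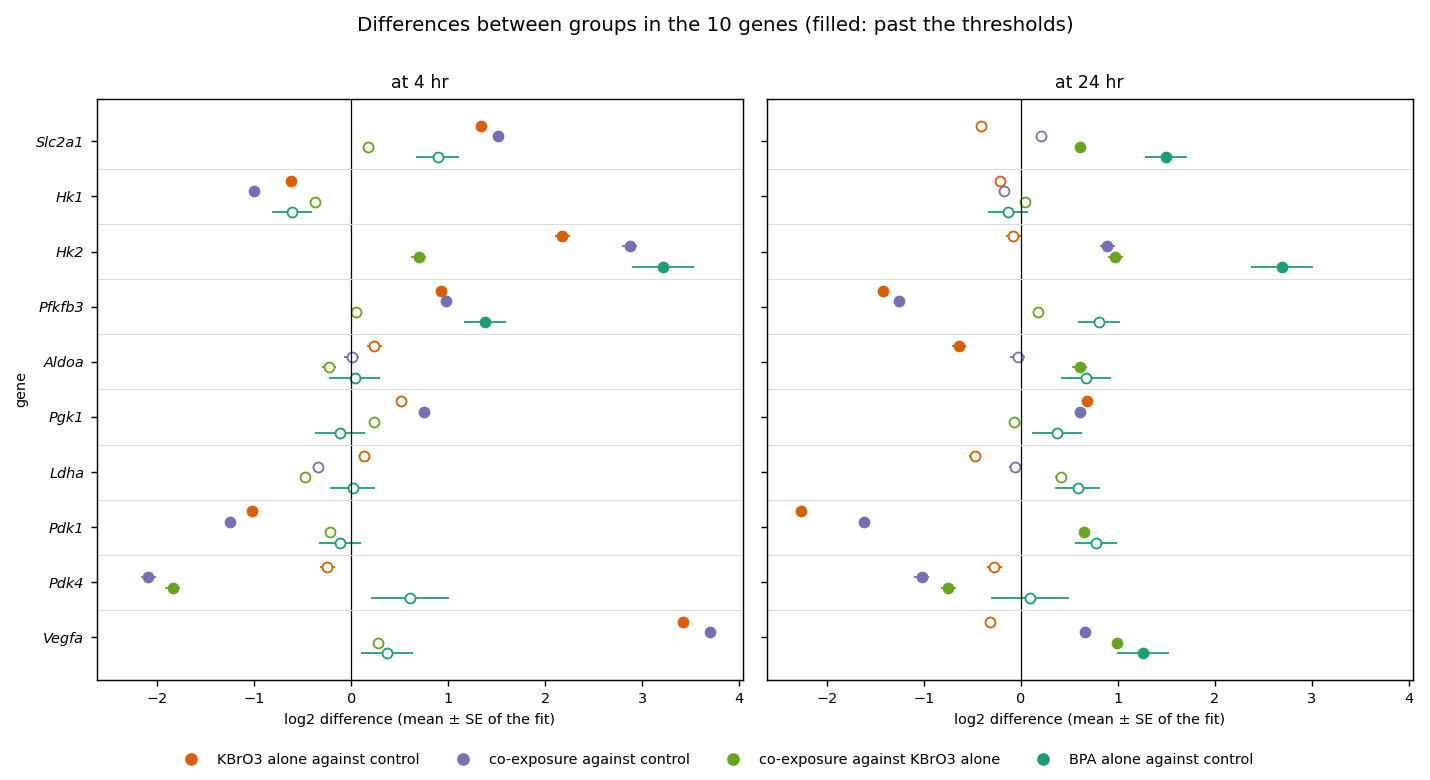
Log2 difference with SE (horizontal axis) of each gene (vertical axis) in 4 comparisons at 4 hr (left) and 24 hr (right), with filled points past an adjusted p of 0.05 and 1.5-fold. At 24 hr co-exposure against KBrO3 alone gives filled points for 6 genes, of which only Pdk4, at −0.75, lies below 0.

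The change between the times was tested directly. No slide held both times of a treatment, and these tests were not repeated under other processing. From 4 to 24 hr after KBrO3 alone, 7 of the 10 genes fell and 0 rose on their brightest probes (background 28.6% lower and 19.2% higher), led by Vegfa at −3.74 ± 0.04, Pfkfb3 at −2.35 ± 0.04 and Hk2 at −2.26 ± 0.08. The second probes of Pdk1 and Ldha, at −0.13 and −0.03, did not pass, so these falls rest on the brightest probe. Of the dimmer Hk1 probes 2 rose, by 0.92 and 0.64. Another, at chr10:61834191-61834250, read higher at 24 hr but was well above background on only 1 array at 4 hr, so no size is given. Under co-exposure 4 fell and 2 rose (background 34.1% and 23.4%), and the risers were Pdk4, at 1.07 ± 0.08 from its low point at 4 hr, and Hk1, at 0.83 ± 0.05 on its brightest probe. The Hk1 probe at chr10:61834191-61834250 fell by 0.69 over the same time, and the other 3 rose, by 1.04, 0.98 and 0.78. The difference that BPA made to KBrO3-treated cells moved upward from 4 to 24 hr for Pdk4, Ldha, Pdk1, Aldoa and Vegfa, by 1.09, 0.89, 0.87, 0.84 and 0.71, and 0 genes went the other way on their brightest probes (background 13.2% higher and 13.4% lower). For Pdk4 this was a smaller fall, and for Ldha and Pdk1 it held for the brightest probe only, since their second probes gave 0.51 and 0.44. BPA alone gave 0 genes past the thresholds between 4 and 24 hr (background 1.24% higher and 3.05% lower).

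BPA was also compared in the presence and absence of KBrO3, in a fit of all 24 arrays with each set's own controls. Hk2 responded more to BPA alone than to BPA added to KBrO3, by 2.52 ± 0.30 at 4 hr (adjusted p = 1.67e-05), and the margin at 24 hr was 1.72 ± 0.30 (adjusted p = 0.00202). Pfkfb3 differed the same way by 1.33 ± 0.18 (adjusted p = 5.01e-05) and 0.64 ± 0.18 (adjusted p = 0.0432), and Slc2a1 by 0.72 ± 0.18 (adjusted p = 0.0103) and 0.88 ± 0.18 (adjusted p = 0.0072). Pdk4 differed by 2.45 ± 0.39 at 4 hr (adjusted p = 0.000326) and by 0.84 ± 0.39 at 24 hr (adjusted p = 0.274). It fell with BPA in KBrO3-treated cells and passed in neither direction with BPA alone. The BPA-alone difference at 4 hr was 0.61 in the fit of its set and −0.33 within the slide that held both groups. The other 2 Pfkfb3 probes gave 0.18 and 0.46 at 4 hr and did not pass, so the 4 hr difference holds for the brightest probe only. At 24 hr these probes were well above background on at most 1 array of each KBrO3-treated group and do not bear on it. On brightest probes no gene passed in the opposite direction. Of 14034 genes, 8.39% were higher and 8.74% lower at 4 hr, and 2.91% and 2.9% at 24 hr. BPA alone was measured on arrays of another set, so that set and KBrO3 cannot be told apart here. The fit shared 1 residual spread between the sets, although the median residual SD was 0.11 in the KBrO3 set and 0.32 in the BPA set. Its SEs for Hk2, Pfkfb3, Slc2a1 and Pdk4 lay below those of BPA alone, so its p-values may be too small. Against their own controls, Pfkfb3 at 24 hr and Slc2a1 at 4 hr did not pass after BPA alone.

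**Figure D4:**
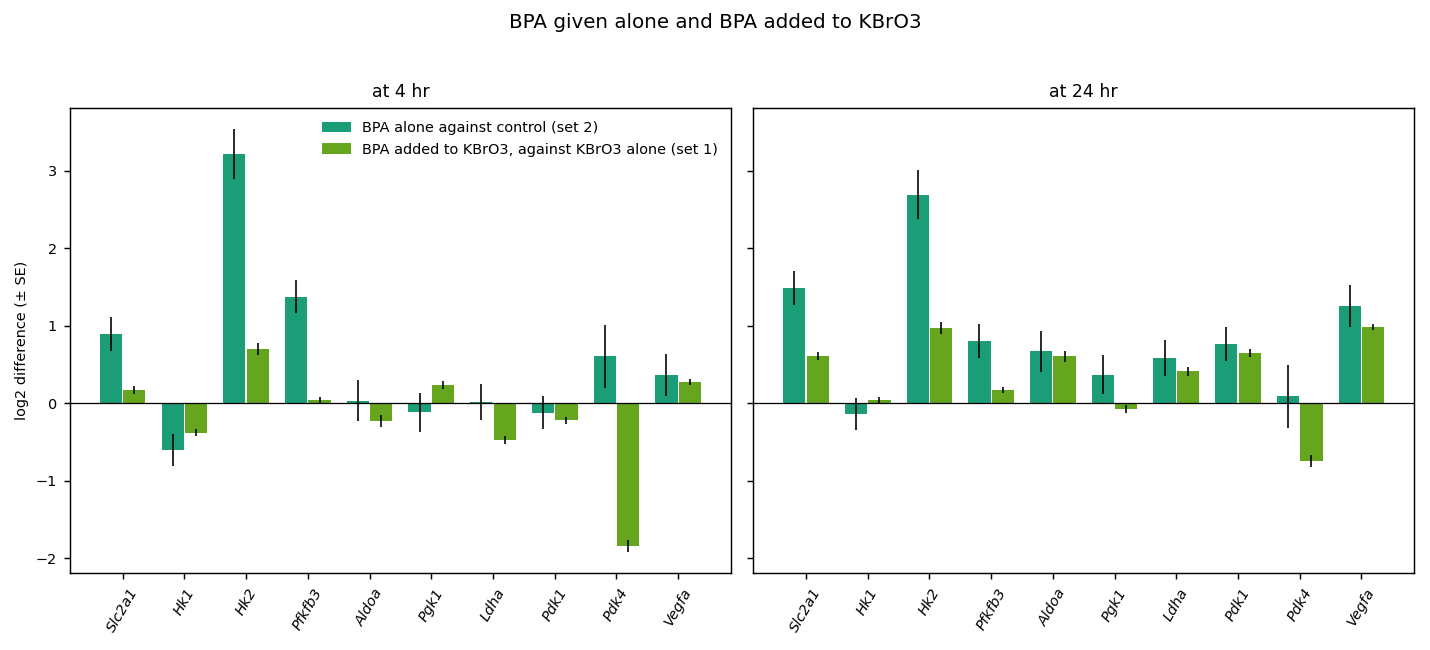
Log2 difference with SE (vertical axis) made by BPA alone and by BPA added to KBrO3 for each gene (horizontal axis), at 4 hr (left) and 24 hr (right). The Hk2 bars at 4 hr stand at 3.21 and 0.70, and the Pdk4 bars at 0.61 and −1.84.

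Other genes of the same pathways were taken from lists, whose counts stand against the shares over all genes, 21.1% higher and 22.8% lower at 4 hr after KBrO3 and 12.7% and 21% at 24 hr. Several counts below lie near these shares, and no list was tested against them. Of the list genes called after BPA alone, 0 of 6 at 4 hr and 0 of 11 at 24 hr still passed under normexp. With slide as a block 0 of all genes passed there. Among 19 other genes generally induced through HIF, 6 rose and 4 fell at 4 hr after KBrO3, while 0 rose and 12 fell at 24 hr, with a median of −0.94 against −0.07 over all genes. The mitophagy receptor gene Bnip3 fell by 0.99 at 4 hr and by 1.11 at 24 hr. Car9, a carbonic anhydrase gene widely used as a hypoxia marker, was at −0.09 at 4 hr and fell by 1.64 at 24 hr. Against KBrO3 alone at 24 hr, co-exposed cells had 7 of the 19 higher and 3 lower (background 6.55% and 7.59%). These included Ankrd37 (1.58) and Ddit4 (1.52), both induced in low oxygen, while Adm, encoding adrenomedullin, fell by 1.73. BPA alone raised 2 of 19 at 4 hr (background 3.01%), with Adm at 0.84, and 3 of 19 at 24 hr (background 1.83%), with Ankrd37 at 1.97.

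HIF genes themselves did not rise with Vegfa and Hk2 at 4 hr after KBrO3. Hif1a was at −0.43, and Epas1, encoding HIF-2α, was at 0.09. Both fell at 24 hr, by 1.02 and 1.30 after KBrO3 and by 1.16 and 2.29 after co-exposure. Of 10 HIF subunit and hydroxylase genes, 0 rose and 2 fell at 4 hr after KBrO3, and 0 rose and 4 fell at 24 hr. After co-exposure at 4 hr, 2 rose and 2 fell (background 28.1% and 26.5%). Against KBrO3 alone at 4 hr, co-exposed cells had 3 higher and 1 lower (background 10.6% and 9.06%). At 4 hr, adding BPA to KBrO3 raised Hif1a by 0.71. Egln3, a prolyl hydroxylase gene, was 1.60 higher than control after co-exposure at 4 hr, but −0.66 after normexp background correction.

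Among 18 other glycolytic enzyme genes tested, 5 rose and 1 fell at 4 hr after KBrO3 (background 21.1% and 22.8%), among them Pkm (pyruvate kinase) at 0.74 and Pgam1 (phosphoglycerate mutase) at 0.70, although on quantile-normalized values these were 0.31 and 0.28. Hkdc1, a hexokinase-like gene, was not well above background in controls and was at least 1.68-fold higher at 4 hr after KBrO3, a direction that turned to −0.75 under normexp. No probe was named Gapdh. After co-exposure at 24 hr 1 rose and 2 fell (background 15.7% and 23.8%), and after BPA alone at 24 hr 0 passed the thresholds, while 1 fell at 4 hr. The other bifunctional enzymes moved opposite to Pfkfb3 at 4 hr after KBrO3, and Pfkfb1 fell by 1.06, Pfkfb2 fell by 1.69 and Pfkfb4 fell by 0.72.

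Of 9 other glucose and lactate carrier genes, 2 rose and 4 fell at 4 hr after KBrO3, and 1 rose and 6 fell at 24 hr. Slc2a4, encoding the insulin-responsive carrier GLUT4, fell by 1.12 and 1.46. Slc16a3, encoding the lactate exporter MCT4, fell by 1.16 and 1.57 after KBrO3 but rose by 1.03 at 24 hr after BPA alone. Slc16a1, encoding MCT1, rose after BPA alone by 1.51 at 4 hr and 1.36 at 24 hr. These rises with BPA alone did not pass under normexp. Of 12 genes of pyruvate dehydrogenase control, 0 rose and 2 fell at 4 hr after KBrO3, and Pdp1, the phosphatase that opposes the kinases, fell by 1.95 at 4 hr and 1.55 at 24 hr. The other kinases Pdk2 and Pdk3 did not pass the thresholds in any comparison with controls or between co-exposure and KBrO3 alone, where they lay between −0.73 and 0.27.

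Genes that induce Pdk4 or are induced with it were compared because of its fall with BPA. Of 17 tested in the KBrO3 set, 4 rose and 5 fell at 4 hr after KBrO3, and 6 rose and 6 fell after co-exposure (background 28.1% and 26.5%). Klf15, a glucocorticoid-induced regulator, was not well above background on the KBrO3-only arrays at 4 hr and was at least 42.9-fold higher in controls (adjusted p = 1.19e-12). It was higher with BPA than without at 4 hr, by at least 3.39-fold. Txnip, which curbs glucose uptake, fell by 3.57 after KBrO3 and by 4.10 after co-exposure at 4 hr. Angptl4, a PPAR target, fell by 1.75 at 4 hr in co-exposed relative to KBrO3-only cells, the same direction as Pdk4, and rose by 2.09 after BPA alone. Among 8 tested VEGF family and receptor genes, 3 rose and 3 fell at 4 hr after KBrO3, and the ligand genes Vegfb and Vegfc fell by 1.34 and 0.64 while Vegfa rose. The receptor gene Nrp1 rose by 2.39.

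The genes whose pattern over the 15 arrays of the KBrO3 set was most like that of Vegfa were Tmem248, Gdf9 and Ier3, with a Pearson r of 0.997, 0.996 and 0.996 among 14084 genes. For Hk2 they were Fnip2, P2ry2 and Ung (r = 0.998, 0.995 and 0.994), and for Pfkfb3 they were Ccl2, Irf2bp2 and Mitf (r = 0.997, 0.996 and 0.994). These arrays share 1 control group and differ mainly by group, which the correlations reflect. Among the members, Slc2a1 and Vegfa were closest, with an r of 0.991, and Hk1 and Hk2 most opposed, at −0.942.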

How the data were processed

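Each array was a 1-color oligonucleotide array that received Cy3-labeled RNA of 1 sample. The authors deposited a fluorescence intensity for each spot, the processed signal of Agilent Feature Extraction with its error, raw and background intensity values. File headers name version 9.5.3.1 with build mm7 for the KBrO3 set and version 12.0.0.7 with build mm9 for the BPA set, whereas the submitters' processing notes give 12.0. The deposited series table holds the same intensity values, since 1080432 of 1080432 were equal. Signals were converted to log2 and the 75th percentile of each array was subtracted, with outlier spots left out and spots of 1 probe averaged. Probes entered the test if all arrays of 1 or more groups read them well above background, which left 27315 probes in the KBrO3 set and 31822 in the BPA set. Each set was fitted in R 4.3.3 with limma 3.58.1 (lmFit and eBayes, two-sided), and p-values were adjusted over all probes tested. The brightest probe over all arrays stood for a gene. Probe positions are those of the KBrO3 set's files in mm7. With 3 arrays in a group, precision is limited by that number.

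The rule for named genes takes all 10 members, other probes where they disagree, and a fixed set of HIF and PDK genes. It takes up to 3 genes a list with the largest change. For the 3 members of widest range in the KBrO3 set, it takes the 3 genes of most similar pattern. Of the genes the rule takes from the lists, 1 is not reported here. The members and lists were chosen with earlier results of these data known. Markers of macrophages, endothelium, epithelium and muscle were listed as well. On the KBrO3 set's control arrays 4 of 8, 2 of 5, 3 of 6 and 3 of 8 of them were well above background. On the BPA set's control arrays 6 of 8, 4 of 5, 5 of 6 and 6 of 8 were. Alternatives were the methods' thresholds (Bonferroni-adjusted p below 0.01 and 1.5-fold), no fold limit, quantile, median and normexp processing (offset 50, on the median signal in the BPA set), other filters, error weights, slide and replicate blocks, the mean of a gene's probes, and leaving out each array. On simulated data, changes of 2-fold were recovered in 85% of 200 probes for KBrO3 at 4 hr, and changes of 8-fold in 90% of 200 probes for BPA at 4 hr, where 2-fold changes were recovered in 0%. Tables and figures used Python with pandas and matplotlib.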

Additional observations from a re-analysis of the deposited data

Results flagged for a closer look

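Several differences between conditions passed a test of the difference itself. From 4 to 24 hr after KBrO3 alone, the log2 signal changed by −3.74 for Vegfa, −2.35 for Pfkfb3, −2.26 for Hk2, −1.75 for Slc2a1, −1.25 for Pdk1, −0.875 for Aldoa and −0.608 for Ldha. The second probes of Pdk1 and Ldha changed by −0.13 and −0.03 and did not pass. From 4 to 24 hr of co-exposure it changed by −3.03 for Vegfa, −2.23 for Pfkfb3, −1.98 for Hk2 and −1.31 for Slc2a1, and by 1.07 for Pdk4 and 0.829 for Hk1, with 3 other Hk1 probes at 1.04, 0.98 and 0.78 and another at −0.69. The difference between co-exposure and KBrO3 alone moved from 4 to 24 hr by 1.09 for Pdk4, 0.886 for Ldha, 0.872 for Pdk1, 0.836 for Aldoa and 0.706 for Vegfa, with the second probes of Ldha and Pdk1, at 0.51 and 0.44, within the fold limit.

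The response to BPA alone exceeded the response to BPA added to KBrO3 at 4 hr by 2.52 for Hk2, 2.45 for Pdk4, 1.33 for Pfkfb3 and 0.72 for Slc2a1. At 24 hr it did so by 1.72 for Hk2, 0.88 for Slc2a1 and 0.636 for Pfkfb3. For Pfkfb3 the 4 hr difference rests on 1 of 3 probes, the others being 0.18 and 0.46, and at 24 hr those probes were well above background on at most 1 array of each KBrO3-treated group. These 7 differences kept their calls when the arrays were weighted by the spread of their set. Their SEs stayed below those of BPA alone, so their p-values may be too small. The array set and the presence of KBrO3 cannot be told apart in them.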

How the results depend on the processing

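In the comparisons with controls or KBrO3 alone, no call of a gene among the 10 turned direction under any alternative. Within-slide values kept these directions but cover only KBrO3 alone at 4 hr, co-exposure against KBrO3 alone at 24 hr and BPA alone. Elsewhere in the KBrO3 set the compared groups shared no slide. The changes from 4 to 24 hr were not run under the alternatives. The 3 genes called after BPA alone at 24 hr became 0 at the methods' Bonferroni threshold, 0 under normexp, 0 with slide as a block and 1 with only the 6 arrays compared. Over all 15747 genes the 288 higher and 391 lower there became 1 and 4, 0 and 0, 0 and 0, and 58 and 88, so these losses were not particular to the 10 genes. The 2 called at 4 hr became 0 at the Bonferroni threshold, 0 with slide as a block and 1 under normexp, where all genes went from 474 higher and 263 lower to 17 and 1, 0 and 0, and 15 and 0. With no fold limit, KBrO3 alone at 24 hr gave 9 genes instead of 4, and co-exposure against KBrO3 alone at 4 hr gave 9 instead of 2, which the Bonferroni threshold made 1. Most of the 14100 genes were also called with no fold limit, 4413 higher and 5372 lower in the former and 3955 and 4615 in the latter (394 and 451 at the Bonferroni threshold). Co-exposure against KBrO3 alone at 24 hr gave 4 genes instead of 6 under quantile normalization, normexp or the Bonferroni threshold, and 5 with median scaling or the mean of a gene's probes. All genes there went from 923 higher and 1070 lower to 982 and 942, 588 and 481, and 543 and 505 under the first 3 settings. Leaving out 1 array at a time gave 1 to 2 genes for BPA at 4 hr (1 without BPA replicate 3), 2 to 3 at 24 hr, 5 to 6 for both 24 hr comparisons of co-exposure, and the same count as with all arrays for the remaining comparisons. Over all genes this gave 162 to 358 higher and 32 to 202 lower for BPA at 4 hr, both lowest without BPA replicate 3, and 118 to 279 higher and 189 to 338 lower at 24 hr. These calls fell by more than 1.5 times without any array except control replicate 1 at 4 hr and BPA replicate 3 at 24 hr.

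Replicate numbers do not pair samples (mean correlation −0.053 in the KBrO3 set and 0.0034 in the BPA set). A fit with a replicate block gave 2 genes instead of 3 for BPA alone at 24 hr, and the same counts in the other 7 comparisons with controls or KBrO3 alone. Over all genes it gave 277 higher and 91 lower for BPA at 4 hr and 147 and 196 at 24 hr.

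Scaling to the array median moved the median over all genes by more than 0.1, to 0.26 for co-exposure at 24 hr from −0.06, and 65.9% instead of 39.7% of called genes were higher. For co-exposure against KBrO3 alone the share was 71.8% instead of 46.3% at 24 hr and 33.3% instead of 53.8% at 4 hr, and for KBrO3 alone at 24 hr it was 53.3% instead of 37.6% (25.8% under normexp). Among other pathway genes, 28 of 243 calls took the opposite sign under normexp, 0 under quantile normalization and 0 under median scaling. For BPA alone, 0 of 6 pathway calls at 4 hr and 0 of 11 at 24 hr still passed under normexp. The causes of these changes were not tested.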
